A study of Schizosaccharomyces pombe with 15 samples.

Results

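The ends described here are those of U6 small nuclear RNA in which a run of 4 to 6 Us was followed by 2 or more As and nothing else, called oligo-A ends. They were picked by their sequence alone, as the listed ends made of 4 to 6 Ts and then at least 2 As, since the reads are written in DNA letters. Over the 19 deposited files 55 distinct oligo-A ends were found among 77768 distinct ends of any sequence. They held 352161 of 22706490 reads, or 1.55% of reads.

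U6, an RNA of the spliceosome, is made by RNA polymerase III and ends in a run of Us. In yeasts, extra As on the 3′ ends of nuclear RNAs can come from the TRAMP complex, whose non-canonical poly(A) polymerase adds short tails that help the nuclear exosome to trim or degrade the RNA. A single A and a longer tail can be told apart only by reading the end itself, which is what these libraries do.

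The series read U6 ends of fission yeast, Schizosaccharomyces pombe, by 3′ RACE, in which an adapter is ligated to RNA ends and U6 is then amplified and sequenced. All strains were grown as log-phase cultures in YES at 30°C. The 11 untagged libraries were wt, rrp6Δ, mpn1Δ, mpn1Δrrp6Δ, cid14Δ, cid14Δmpn1Δ, cid11Δ, cid12Δ and cid16Δ, all treated with polynucleotide kinase (PNK), and wt and rrp6Δ without PNK. PNK removes 3′ phosphates, which otherwise block ligation. A further 4 PNK-treated strains (tU6-wt, tU6-C36A, mpn1Δ tU6wt and mpn1Δ tU6-C36A) carried a tagged U6, with the wild-type sequence or with C36A, beside the endogenous one. From each of these 4, endogenous and tagged U6 reads came as separate files. Every strain or treatment had 1 library and no replicate, and PCR reads without molecular identifiers are not independent molecules.

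The gene behind these reads is snu6, on chromosome I, minus strand, 2562276 to 2562419 in ASM294v3. Its 3′ flank is shown because it tells which As the genome could encode. The strand read is that of the RNA, chrI:2562241-2562300, and the capitals mark the encoded run of 9 Ts at 2562266 to 2562274, which is followed by a C.
snu6 3′ end and flank: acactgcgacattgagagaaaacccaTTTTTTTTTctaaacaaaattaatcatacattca
No A follows the T run directly in this sequence, so As after 4 to 6 Us are not encoded at this place. The tagged copy's own flank was not analysed here.

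The ends on which the results turn are printed next, with the A tail in capitals. The first is the single-A end against which oligo-A ends were set. The others are the commonest oligo-A ends, longer tails of cid12Δ, and ends that stand out in single files of the tagged strains.
5 Us and 1 A: tttttA
4 Us and 2 As: ttttAA
5 Us and 2 As: tttttAA
6 Us and 2 As: ttttttAA
4 Us and 3 As: ttttAAA
5 Us and 3 As: tttttAAA
5 Us and 4 As: tttttAAAA
6 Us and 5 As: ttttttAAAAA
5 Us and 9 As: tttttAAAAAAAAA
5 Us and 12 As: tttttAAAAAAAAAAAA
4 Us and 13 As: ttttAAAAAAAAAAAAA

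Of the 55 oligo-A ends, 18 had 4 Us, 19 had 5 Us and 18 had 6 Us, and the longest A tail had 21 As. The 3 ends with 2 As, the end ttttAAA and the end with 6 Us and 3 As were the 5 found in every file, and 5 ends were found in 1 file only. Ends with 2 As after 5 Us were the commonest over all files, with 163769 reads, followed by 2 As after 6 Us with 85024 and after 4 Us with 49837. Files held 408281 to 3966962 reads with an end sequence, and 10 to 46 distinct oligo-A ends. A count of 0 allowed a share of up to 0.0000756% of reads in the deepest file and 0.000735% in the shallowest. This limit and all intervals cover counting error only.

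Ends just outside the rule were of these sizes. Oligo-A tails after 3 Us held 0.000893% to 0.351% of reads and those after 7 Us 0% to 0.233%. Ends with 4 to 6 Us and exactly 1 A held 1.77% to 66.7%. Ends with 4 to 6 Us and at least 2 As that went on with another base held 0.0595% to 1.28%.

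In wt, oligo-A ends held 0.185% of reads (exact Clopper-Pearson 95% interval 0.176 to 0.195). Single-A ends with the same U runs held 3.74%, so there were 0.0496 oligo-A reads for each single-A read (0.0472 to 0.0522). This quotient is called the oligo-A ratio below. The ratio differed little by U run in wt, with 0.0511 after 4 Us, 0.0506 after 5 Us and 0.0451 after 6 Us. Of oligo-A reads in wt, 72.4% had 2 As, 17.3% had 3, 5.52% had 4 and 4.83% had 5 or more, and the mean tail was 2.47 As. Only 2 of the 1593 oligo-A reads had 10 or more As. The commonest oligo-A end was ttttAA, with 31.2% of oligo-A reads (28.9 to 33.5).

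Across all files the oligo-A share went from 0.0437% of reads in cid11Δ to 6.57% in endogenous U6 of mpn1Δ tU6-C36A, with a median of 1.95%. The oligo-A ratio went from 0.0213 in cid11Δ to 0.347 in tagged U6 of tU6-wt, with a median of 0.0657. The order by ratio was not that by share: cid12Δ held 0.328% of reads as oligo-A ends but had a ratio of 0.139, above all other untagged libraries. Single libraries allow no test, so a difference between 2 of them was called past the limit where it was at least 2 times, with at least 100 oligo-A reads in each. The cid14, rrp6, mpn1 and cid12 comparisons in wt cells share the wt library, and those of cid14 and rrp6 in mpn1Δ cells share the mpn1Δ library.

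The commonest oligo-A end took different shares of the oligo-A reads. It was ttttAA in wt, in wt without PNK (31.0%), in cid11Δ (32.5%), in cid16Δ (23.8%) and in endogenous U6 of tU6-C36A (46.6%). It was tttttAA in rrp6Δ (49.0%), rrp6Δ without PNK (50.0%), mpn1Δ (49.4%), mpn1Δrrp6Δ (50.5%), cid14Δ (34.4%), cid14Δmpn1Δ (55.5%) and cid12Δ (14.3%). Among the other files of tagged strains it was tttttAA in endogenous U6 of tU6-wt (46.5%), mpn1Δ tU6wt (56.0%) and mpn1Δ tU6-C36A (42.7%), and in tagged U6 of tU6-wt (93.7%) and mpn1Δ tU6wt (55.0%). It was ttttttAA in tagged U6 of mpn1Δ tU6-C36A (45.6%) and tttttAAAA in tagged U6 of tU6-C36A (48.9%). So cid12Δ, whose 3 commonest oligo-A ends together held 39.0%, was the most even of the 19 files, and tagged U6 of tU6-wt rested almost wholly on 1 end.

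The files of the tagged strains stood apart in another way. In all 11 untagged libraries the number of oligo-A reads fell at each added A from 2 to 6 As. That held in 1 of the 8 files of tagged strains. In endogenous U6 of tU6-wt, for example, 234 reads had 2 As, 134 had 3, 5 had 4 and 98 had 5, the last all in ttttttAAAAA. The tests on mpn1 below pool the endogenous U6 of these strains with the untagged libraries, and are also given within subsets of the libraries. The share and ratio in tagged U6 are also given without the commonest end.

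The untagged libraries also fell into 2 sets by reads whose end held an N, an unread base, and the sets are defined by that alone. Such ends held 0% to 0.000142% of reads in 7 of them and 0.0217% to 0.0244% in the other 4, which were cid11Δ, cid16Δ, cid12Δ and the wt library made without PNK. In the 8 files of tagged strains they held 0.00249% to 0.00598%.

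The deletion of cid14, which encodes the poly(A) polymerase of TRAMP, was present in an otherwise wild-type and in an mpn1Δ background. Oligo-A ends made up 0.123% of cid14Δ reads (0.113 to 0.134) against 0.185% in wt, and 3.04% in cid14Δmpn1Δ (2.99 to 3.09) against 6.0% in mpn1Δ. The oligo-A ratio was 0.0265 in cid14Δ and 0.0496 in wt, and 0.0481 in cid14Δmpn1Δ and 0.0902 in mpn1Δ. It was thus 0.534 times that of the reference in wt cells (counting interval 0.484 to 0.589) and 0.533 times in mpn1Δ cells (0.523 to 0.544), from 4 different libraries. Both ratios and both shares were lower without cid14, and all 4 differences stayed under the limit of 2 times.

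Longer tails differed more. Tails of 3 or more As made up 0.0125% of cid14Δ reads against 0.0512% in wt, which is 0.244 times as much (0.185 to 0.322), though on only 56 reads in cid14Δ. In the mpn1Δ background they held 0.112% with cid14 deleted and 0.512% with cid14 present, or 0.218 times as much (0.199 to 0.239). Put as steps, of the reads with at least 2 As 10.1% had at least 3 in cid14Δ (7.75 to 13) and 27.6% in wt (25.4 to 29.9). In the mpn1Δ background the same step was 3.68% (3.36 to 4.01) and 8.55% (8.34 to 8.76). The step from 1 A to at least 2 As was 2.58% against 4.73%, and 4.59% against 8.27%. These steps were lower without cid14 in both backgrounds. The next step, from 3 to at least 4 As, was 39.3% in cid14Δ (26.5 to 53.2) and 37.5% in wt (33.0 to 42.2), with overlapping intervals, and 10.2% (7.65 to 13.2) against 16.6% (15.6 to 17.5) in the mpn1Δ background.

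Among single ends, ttttAAA held 0.00156% of cid14Δ reads against 0.0143% in wt, and tttttAAA held 0.00379% against 0.0119%. In cid14Δ these were only 7 and 17 reads. The 2-A ends lay closer: tttttAA held 0.0424% in cid14Δ and 0.0474% in wt, and ttttttAA held 0.0285% and 0.0290%. The third, ttttAA, differed more than these, with 0.0397% in cid14Δ and 0.0579% in wt. In the mpn1Δ background tttttAA held 1.68% with cid14 deleted against 2.96%, and tttttAAA 0.0484% against 0.236%. Of the 21 oligo-A ends seen in cid14Δ or wt, 5 had at least 100 reads in the pair of libraries, and 2 of these were at least 2 times lower in cid14Δ. Over all 75 ends of any sequence with that depth 16% were. An end could reach that depth through 1 library alone, where it was frequent. Such counts, here and below, therefore partly follow from this rule. In the mpn1Δ background 7 of the 9 oligo-A ends with that depth, of 25 in all, were at least 2 times lower, against 23.2% of 95 ends of any sequence. By U run, the ratio without cid14 was 0.485, 0.501 and 0.692 times the wt value after 4, 5 and 6 Us, and 0.449, 0.514 and 0.588 times the mpn1Δ value.

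The cid12Δ library had the longest mean tail and the most evenly spread oligo-A ends of the untagged libraries. Cid12 is a member of the same nucleotidyltransferase family as Cid14 and is known as a subunit of the RNA-directed RNA polymerase complex. In cid12Δ 33.5% of oligo-A reads had 2 As, 28.9% had 3, 18.1% had 4 and 19.5% had 5 or more, with a mean tail of 3.50 As. The tail reached 20 As, and tttttAAAAAAAAAAAA, with 18 reads, was the longest end with at least 10. Of reads with at least 2 As, 66.5% had at least 3 (65.7 to 67.4), and of those 56.5% had at least 4 (55.5 to 57.6). The step from 1 A to at least 2 As was much rarer, at 12.2% (12.0 to 12.4), so single-A ends and longer tails did not follow 1 constant step. Late steps were not the highest in cid12Δ. From 7 to at least 8 As the step was 54.9% there (51.4 to 58.4). In cid16Δ it was 76.7% (68.0 to 84.1) and in cid11Δ 60.9% (47.9 to 72.9).

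The cid11Δ and cid16Δ libraries, which lack other members of this family, were like cid12Δ in their reads holding an N. They had the smallest oligo-A shares of the series, 0.0437% (0.0412 to 0.0462) and 0.0502% (0.0479 to 0.0525), against 0.328% (0.323 to 0.334) in cid12Δ. The oligo-A ratio was 0.0213 in cid11Δ, 0.0284 in cid16Δ and 0.139 in cid12Δ. The cid12Δ ratio was 6.52 times that of cid11Δ (6.14 to 6.92) and 4.89 times that of cid16Δ (4.65 to 5.14). Both differences were past the limit, and so were those in share, at 7.52 times (7.10 to 7.98) and 6.54 times (6.23 to 6.87). All 18 oligo-A ends with at least 100 reads in the pair, of 47 seen in it, were at least 2 times higher in cid12Δ than in cid11Δ, where 57.3% of 262 ends of any sequence were. The same 18 of 18 held against cid16Δ, where 58.8% of 289 ends of any sequence were at least 2 times higher. These 2 comparisons share the cid12Δ library. Ends could reach 100 reads through cid12Δ alone, where tttttAAA, for example, had 1632 reads against 94 in cid11Δ. The 2 counts of 18 thus partly follow from the depth rule and are descriptions, not tests.

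How far cid12Δ stood apart differed by U run. Its ratio was 0.0703 after 4 Us, 0.281 after 5 Us and 0.301 after 6 Us. In cid11Δ the values were 0.0166, 0.0332 and 0.0333, and in cid16Δ 0.0202, 0.050 and 0.0450. Single-A ends were gathered at 4 Us in all 3 libraries, where cid11Δ had 71.7% of its single-A reads, cid12Δ 68.5% and cid16Δ 71.0%, against 43.0% in wt. The end tttttAAA held 0.0411% of the cid12Δ reads, 0.00336% in cid11Δ and 0.00428% in cid16Δ, and tttttAA held 0.0471%, 0.00751% and 0.00842%.

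Against wt, cid12Δ had 1.77 times the oligo-A share (1.68 to 1.87), under the limit, and 2.80 times the oligo-A ratio (2.65 to 2.95), past it. After 5 Us the ratio was 5.56 times that of wt, after 6 Us 6.69 times and after 4 Us 1.37 times. Tails of 3 or more As held 4.27 times their wt share (3.88 to 4.70). Of 18 oligo-A ends with at least 100 reads in the pair, of 46 seen, 15 were at least 2 times higher in cid12Δ, against 49.4% of 239 ends of any sequence. Here too an end could reach that depth through cid12Δ alone. The share passed the limit, at 2.07 times, when only ends with 5 Us were counted, and at 2.20 times when the commonest oligo-A end of each file was left out. The wt library held no end with an N, whereas cid12Δ had 0.0226% of reads with one, so set and deletion cannot be told apart in this comparison. The library of wt without PNK, in the same set as cid12Δ, had a ratio of 0.0608 and a mean tail of 2.67 As. Against it cid12Δ had 2.28 times the ratio (2.22 to 2.35) but 0.460 times the share (0.449 to 0.473), both past the limit, and PNK differed as well. Tails of 3 or more As were no more frequent, with 0.219% of reads in cid12Δ and 0.230% in that wt library. The ratio was 0.881 times after 4 Us, 5.17 times after 5 Us and 6.77 times after 6 Us. Of 18 oligo-A ends with at least 100 reads in this pair, 2 were at least 2 times higher in cid12Δ and 3 at least 2 times lower. The matching shares over all ends of any sequence are not given here, so these counts were not read further. Mean tails in cid11Δ and cid16Δ were also long, at 3.02 and 3.29 As, whereas the 7 other untagged libraries had 2.04 to 2.47 As. The part of the library set in this was not tested. Within the set, cid12Δ kept the highest ratio and the longest mean tail of the 4 libraries.

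Strains without mpn1, the fission yeast gene for the nuclease known in humans as USB1, which trims U6 ends, held far more oligo-A ends, nearly all short. Their share in PNK-treated RNA was 6.0% in mpn1Δ, 6.09% in mpn1Δrrp6Δ, 3.04% in cid14Δmpn1Δ, and 3.89% and 6.57% in endogenous U6 of mpn1Δ tU6wt and mpn1Δ tU6-C36A. In the 8 libraries with mpn1 it ran from 0.0437% in cid11Δ over a median of 0.154% to 2.90% in rrp6Δ. The 2 groups did not overlap. Their means were 5.12 ± 1.55% (SD, n = 5) and 0.492 ± 0.976% (SD, n = 8), a difference of 4.63 percentage points. By a two-sided exact permutation test the p-value was 0.00155, or 0.00466 after Benjamini-Hochberg adjustment over the 3 outcomes tested, and no regrouping could give a smaller one. The libraries compared differ in other genes too, and each strain had 1 library. The p-values given here thus set the difference against a spread that mixes strain with library preparation. The cid11Δ, cid12Δ and cid16Δ libraries, with more ends holding an N, all lie on the side with mpn1. In 5 of 5 pairs of the same background the share was higher without mpn1, by 4.42 ± 1.57 points on average (SD, n = 5 pairs, two-sided exact sign-flip p = 0.0625, the smallest 5 pairs allow).

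The oligo-A ratio moved much less than the share. It was 0.0902 in mpn1Δ, 0.0913 in mpn1Δrrp6Δ, 0.0481 in cid14Δmpn1Δ, and 0.0657 and 0.124 in the tagged strains' endogenous U6. With mpn1 it ran from 0.0213 over a median of 0.0390 to 0.139 in cid12Δ, so the groups overlapped. The means were 0.0838 ± 0.0288 (SD, n = 5) and 0.0541 ± 0.0401 (SD, n = 8), and the difference did not pass (exact permutation p = 0.188, adjusted 0.188). Without cid12Δ, the library with the highest of these ratios, the difference was 0.0419 and passed, with an adjusted p of 0.0227 in the same test. With any other of the 13 libraries left out it did not pass (adjusted p of 0.129 to 0.408, exact permutation test). Within pairs the ratio was higher without mpn1 in 5 of 5 (exact sign-flip p = 0.0625): 1.82 times in wt, 1.09 times in rrp6Δ, 1.82 times in cid14Δ, and 2.33 and 2.22 times in the tagged strains. In the wt background the share was 32.3 times higher (30.8 to 34.0), and the share of single-A ends was 66.5% against 3.74%.

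Oligo-A tails were shorter on average in the libraries without mpn1. The mean tail was 2.10 As in mpn1Δ, 2.14 in mpn1Δrrp6Δ, 2.04 in cid14Δmpn1Δ, 2.22 in mpn1Δ tU6wt and 2.12 in mpn1Δ tU6-C36A. With mpn1 it ran from 2.13 in rrp6Δ over a median of 2.86 to 3.50 in cid12Δ, and rrp6Δ fell inside the range without mpn1. The means were 2.12 ± 0.0622 As (SD, n = 5) and 2.82 ± 0.527 As (SD, n = 8), and the difference passed the test (exact permutation p = 0.0109, adjusted 0.0163). Over the 5 pairs the mean difference was -0.423 ± 0.413 As (SD, exact sign-flip p = 0.125), negative in all but the rrp6Δ pair, at 0.00273 As. The largest, -1.04 As, was that of mpn1Δ tU6wt against tU6-wt. The tU6-wt mean of 3.26 As came from 486 oligo-A reads, 98 of them in the end with 6 Us and 5 As. Within sets the difference did not pass. In the 3 against 3 untagged libraries with few ends holding an N the difference was -0.164 As (exact permutation p = 0.2, where 0.1 is the smallest possible). Within the tagged strains it was -0.812 As (2 against 2, exact permutation p = 0.333, the smallest possible), and without the cid11, cid12 and cid16 deletions it was -0.423 As (5 against 5, exact permutation p = 0.0556). The corresponding differences in oligo-A share were 3.97 points (exact permutation p = 0.1), 5.08 points (p = 0.333 by the same permutation test) and 4.42 points (exact permutation p = 0.00794). For the ratio they were 0.0232 (exact permutation p = 0.3), 0.0528 (exact permutation p = 0.333) and 0.0350 (exact permutation p = 0.0714).

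In mpn1Δ 91.5% of oligo-A reads had 2 As, 7.13% had 3, 1.09% had 4 and 0.328% had 5 or more. The steps to at least 2 and to at least 3 As were alike, 8.27% and 8.55%, where wt had 4.73% and 27.6%. All 10 oligo-A ends with at least 100 reads in mpn1Δ and wt together, of 26 seen, were at least 2 times higher in mpn1Δ, against 47.7% of 111 ends of any sequence. Ends could reach that depth through mpn1Δ alone, so this count partly follows from the depth rule. The end tttttAA held 2.96% of reads against 0.0474%, ttttttAA 1.59% against 0.0290% and ttttAA 0.926% against 0.0579%. The ratio was lower after longer U runs in mpn1Δ, with 0.122, 0.0926 and 0.0749 after 4, 5 and 6 Us. Tails of 3 or more As held 0.512% of reads against 0.0512%. Relative to single-A ends they were 0.562 times as frequent as in wt, so tails of 2 As were more frequent per single-A end and longer tails less so.

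The deletion of rrp6, which encodes an exonuclease of the nuclear exosome, went with a larger share of oligo-A ends in wt cells, though smaller than that of mpn1Δ. Oligo-A ends held 2.90% of reads in rrp6Δ (2.86 to 2.94) against 0.185% in wt, or 15.6 times as much (14.8 to 16.4), past the limit. The oligo-A ratio was 0.0840 against 0.0496, which is 1.69 times (1.61 to 1.78) and under the limit. Without PNK the shares were 4.15% in rrp6Δ and 0.713% in wt, or 5.81 times (5.68 to 5.95), and the ratios 0.0852 and 0.0608, or 1.40 times. These libraries of wt and rrp6Δ without PNK differed in reads holding an N, 0.0244% and 0%, so set and deletion cannot be told apart there. With mpn1 also deleted the share was 6.09% against 6.0%, or 1.02 times, and the ratio 0.0913 against 0.0902, or 1.01 times.

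Tails in rrp6Δ had 2.13 As on average, 2.47 in wt, with 90.1% of oligo-A reads at 2 As, 7.67% at 3, 1.66% at 4 and 0.524% at 5 or more. The step from 2 to at least 3 As was 9.86% (9.45 to 10.3) against 27.6% in wt. Tails of 3 or more As relative to single-A ends were 0.604 times as frequent as in wt, and 0.427 times in RNA not treated with PNK. In mpn1Δ cells the deletion of rrp6 went with a larger share of tails of 3 or more As, 0.628% of reads against 0.512%. All 8 oligo-A ends with at least 100 reads in rrp6Δ and wt together, of 26, were at least 2 times higher in rrp6Δ, against 37.6% of 93 ends of any sequence. Without PNK 6 of 12, of 45, were at least 2 times higher, against 25.6% of 176. Another 2 of the 12 were at least 2 times lower, a direction for which the share over all ends is not given here. In mpn1Δ cells 0 of 11, of 30, were at least 2 times higher, against 11.2% of 116 ends of any sequence. In these pairs too, ends could reach 100 reads through 1 library alone. The ratio was lower after longer U runs in rrp6Δ, as in mpn1Δ, with 0.110, 0.0806 and 0.0681 after 4, 5 and 6 Us, and the values without PNK were 0.109, 0.0830 and 0.0683.

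Leaving out PNK hardly touched the ratio in rrp6Δ, at 1.01 times (0.995 to 1.03), while the share was 1.43 times as high. In wt the share was 3.85 times as high without PNK (3.65 to 4.06), past the limit, and the ratio 1.23 times (1.16 to 1.29). The wt libraries with and without PNK differed in reads holding an N, as said of cid12Δ.

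In tagged U6 the oligo-A ratio was highest where mpn1 was present, with 0.347 in tU6-wt (0.339 to 0.355) and 0.320 in tU6-C36A (0.314 to 0.327). In mpn1Δ tU6wt it was 0.0599 and in mpn1Δ tU6-C36A 0.0747. The oligo-A share went the other way, with 0.879% and 1.95% where mpn1 was present and 3.24% and 3.77% where it was deleted, 3.68 times (past the limit) and 1.94 times (under it). In the strains with mpn1, the ratio of endogenous U6 from the same RNA was 0.0282 in tU6-wt and 0.0558 in tU6-C36A. The tU6-wt value rested on tttttAA, which held 10010 of 10688 oligo-A reads. Without the commonest end of each file the ratio in tagged U6 was 0.0220 in tU6-wt and 0.0270 in mpn1Δ tU6wt, so that the direction turned, and 0.164 in tU6-C36A and 0.0406 in mpn1Δ tU6-C36A. The oligo-A share without that end, an alternative chosen after seeing the data, was 0.0562% in tU6-wt and 1.48% in mpn1Δ tU6wt, or 26.4 times as much without mpn1. For C36A it was 1.004% and 2.09%, or 2.08 times, now past the limit.

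Tagged U6 of tU6-C36A had the lowest share of 2-A ends of the 19 files, at 4.51% of oligo-A reads. There 50.1% had 4 As and 29.6% had 5 or more, and the mean tail was 6.04 As, or 8.0 As without the commonest end. The reads were gathered in a few ends. The end tttttAAAA held 5640 reads, tttttAAAAAAAAA 1374, and ttttAAAAAAAAAAAAA 723, while 5, 6, 7 and 8 As together with any of the 3 U runs held 8, 22, 17 and 8 reads. After 6 Us, tails of 14 and 15 As held 400 and 376 reads. In all, 1979 reads of this file had 10 or more As, against 352 in tagged U6 of mpn1Δ tU6wt, the next highest of the 19 files, 175 among the 3966962 reads of cid12Δ and 12 in tagged U6 of tU6-wt. The same ends were also found in endogenous U6 of this strain. There 5 Us and 4 As held 135 reads, 5 Us and 9 As 15, and 4 Us and 13 As 5. Tails of 14 and 15 As after 6 Us held 11 and 13 reads. All 52 reads with 5 or more As in that file had at least 9. Its mean tail of 2.71 As, used in the mpn1 tests, includes these ends. Whether the reads of these ends are many molecules or copies of a few was not tested in either file.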

How the data were processed

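The deposited files list counts, the number of reads of each distinct 3′ end, made by the authors from ligated and amplified U6 RNA, per the labels' protocols. The submitters' processing notes name CASAVA 1.8.2 and cutadapt. Read filters, the split of endogenous from tagged reads and the build were not given in the sources used here, and files named exogenous were taken as tagged U6. ASM294v3 served for the gene's position and flank.

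Shares were computed over all reads with an end sequence, leaving out 1 line without one per file. Ligation, amplification and errors in runs of 1 base can change shares and tail lengths. Intervals of shares and steps are exact (Clopper-Pearson, 95%). That of a ratio is the same interval transformed, and those of a quotient of 2 libraries use a normal approximation on log counts. Libraries with and without mpn1 were compared in endogenous U6 of PNK-treated RNA by SciPy 1.17.1's exact permutation test, whose two-sided p doubles the smaller tail, and by a sign-flip test over pairs of the same background. Python 3.11.15 and NumPy 2.4.6 were used, and the scripts were tested on simulated data. Alternatives changed the tails, U runs, ends and libraries counted. The ends named were those with 2 As, the commonest of each file, the longest with at least 10 reads, those with at least 0.1% of reads in any file, and single-A ends. Members, limits and comparisons were chosen with earlier results of these data known. Background counts take every end with at least 100 reads in the 2 libraries together, so an end could pass through 1 of them alone.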

Additional observations from a re-analysis of the deposited data

Results flagged for a closer look

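Among the 8 PNK-treated libraries with mpn1, rrp6Δ stood far above the others in oligo-A share, at 2.90% of reads. No other library was marked in the 6 sets looked at, and by chance about 1 set in 20 is. Deleting rrp6 moved the mean oligo-A tail by -0.337 As in wt cells, by -0.544 As in RNA not treated with PNK and by 0.0312 As in mpn1Δ cells. These signs were opposite, each from single libraries, and the difference between them was not tested. The wt and rrp6Δ libraries without PNK also differed in reads holding an N.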

How the results depend on the processing

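No paired analysis was possible because each strain had 1 library and no replicate number is shared, other than the pairing by background. The difference in share between libraries with and without mpn1 lost its call with pairing by background (4.42 points, adjusted p = 0.0938 in the exact sign-flip test). It also did so in untagged libraries only (4.44 points, adjusted p = 0.0714 in the exact permutation test). The same held within the untagged libraries with few ends holding an N (3.97 points) and within the tagged strains (5.08 points). The mean tail lost its call in the same settings (-0.423, -0.670, -0.164 and -0.812 As). It also lost it without the cid11, cid12 and cid16 deletions (-0.423 As). The smallest p that 5 pairs, the untagged libraries with few ends holding an N, or the tagged strains allow is above the threshold. In untagged libraries only, the shares did not overlap, with at least 3.04% without mpn1 and at most 2.90% with it. No regrouping of those libraries could give a smaller p for the share. Elsewhere the cause was not tested. The ratio turned to -0.0112 with tails of 3 or more As and passed only without cid12Δ (0.0419). With each library left out in turn the differences ran from 4.26 to 5.15 points in share, 0.0197 to 0.0419 in ratio and -0.792 to -0.597 As in mean tail. The set values were chosen after seeing the data. Counting only ends with at least 10 reads, only ends with 5 Us, or all but the commonest end kept the calls on all 3.

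For single deletions, the values below are multiples of the reference library. With tails of 3 or more As, the share was 0.244 and 0.218 times for cid14 (in wt and in mpn1Δ), 5.57, 1.23 and 1.77 times for rrp6 (in wt, in mpn1Δ and without PNK), 10.002 times for mpn1, and 4.27, 11.1 and 8.19 times for cid12Δ (against wt, cid11Δ and cid16Δ). The ratio was 0.196 and 0.229, 0.604, 1.22 and 0.427, 0.562, and 6.74, 9.59 and 6.12 times in the same order. With 5 Us alone, the share was 0.536 times for cid14 in mpn1Δ, 23.4, 1.05 and 9.63 times for rrp6, 48.2 times for mpn1, and 2.07, 9.74 and 7.90 times for cid12Δ. The ratio was 0.514 times for cid14 in mpn1Δ, 1.59, 0.937 and 1.53 times for rrp6, and 5.56, 8.48 and 5.62 times for cid12Δ. Without the commonest oligo-A end, the share was 0.440 times for cid14 in mpn1Δ, 11.7, 0.995 and 4.29 times for rrp6, 24.5 times for mpn1, and 2.20, 9.55 and 7.36 times for cid12Δ. The ratio was 0.470 times for cid14 in mpn1Δ, 1.25, 0.991 and 1.02 times for rrp6, 1.34 times for mpn1, and 3.48, 8.27 and 5.49 times for cid12Δ. With ends of at least 10 reads, cid12Δ against cid16Δ had 6.95 times the share and 5.14 times the ratio. Other values moved by less than their counting interval. Depth limits tails of 3 or more As in cid14Δ, with 56 reads.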
